A study of Mus musculus with 24 samples.

Results

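RNA recovered with a GFP-tagged Mkrn3 protein was compared directly with RNA recovered with GFP alone, gene by gene and without reference to the input lysates. All genes of the count table were taken, and the libraries were the 3 GFP-Mkrn3 pull-downs and the 3 GFP pull-downs, 6 of the 24 libraries of the series. Of the 57010 genes counted, 12644 had enough reads in these 6 libraries to be tested. The cells were GT1-7, an immortalised mouse line of hypothalamic neurons that make gonadotropin-releasing hormone (GnRH). They were transfected with 6 µg of a plasmid for GFP or for GFP-Mkrn3, collected after 24 h, and lysed. The tagged protein was captured on beads carrying a GFP-binding antibody fragment overnight in the cold and washed 4 times. A 5% share of each lysate was kept as input, and RNA was made into CEL-seq2 libraries, which read the 3′ ends of polyadenylated RNA. Both groups carried a plasmid and both kept the cell's own genes; the protein in the GFP-Mkrn3 group was overexpressed, and GFP alone served as the control for what the tag and beads bind.

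Mkrn3 is a paternally expressed member of the makorin family, proteins that combine CCCH zinc fingers, which can bind RNA, with a RING domain that gives them ubiquitin ligase activity. Loss of MKRN3 function in people causes central precocious puberty, and Mkrn3 in the hypothalamus falls before puberty, so the gene is regarded as a brake on GnRH release. The poly(A)-binding proteins, which coat mRNA tails and promote translation, are among the proteins it has been reported to ubiquitinate. In a pull-down of this kind a transcript is higher with the bait where more of the recovered RNA consists of it, so every value is a share of a library and not an amount of RNA per cell.

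The pull-down libraries held 8420755, 8713600 and 6254703 counts with GFP and 10324136, 14575652 and 8616616 counts with GFP-Mkrn3. Counts for more genes were found in the deeper group, 19288 to 20599 genes against 17942 to 18421. Levels are given below as CPM, read counts scaled to a common library total with edgeR's TMM factors, which correct for differences in library make-up. Pearson correlations of log2 CPM across genes were 0.974 to 0.989 within a group and 0.949 to 0.978 between the groups. Nothing in the labels states whether the 3 libraries of 1 group are separate cultures; p-values then measure the spread between these libraries, which may be technical. As a check of the cell label, Gnrh1, Otx2, Six6 and Gnaq of the 6 GnRH neuron markers had enough counts to be tested. Kiss1r had only 11 counts in the 3 GFP and 32 in the 3 GFP-Mkrn3 pull-downs, and Ebf2 had 0 in both groups. Of 10 general neuron markers only Uchl1, Tubb3, Map2 and Syt1 had enough counts, 3 of them under 7 CPM, while Snap25, Stmn2, Nefl, Nefm, Gap43 and Elavl4 had 0 counts in all 6 pull-downs. The line also carried Kdr, Pdgfra and Col1a2 at 143 to 409 CPM as group means, genes usually listed for endothelium and fibroblasts.

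Mkrn3 itself (chr7:62417593-62420153, the RefSeq span on GRCm38.p6, as for all positions here) was counted 57, 60 and 33 times in the GFP pull-downs and 108096, 141568 and 86579 times in the GFP-Mkrn3 pull-downs. The bait transcript thus made up 1.05%, 0.971% and 1% of the counts in the 3 GFP-Mkrn3 libraries, and every library matched the plasmid of its label. These counts do not tell a pull-down from an input. The inputs held 36 to 60 counts with GFP and 28280 to 32451 with GFP-Mkrn3. The fitted log2 difference was 10.45 ± 0.16 (SE, n = 3 and 3, adjusted p = 1.45e-12). The inputs already differed by 9.25 on the log2 scale, the plasmid carrying the gene, and the IP-to-input ratio was higher with GFP-Mkrn3 than with GFP by a further 1.20 (adjusted p = 0.00116). Plasmid-derived and chromosomal Mkrn3 reads could not be told apart.

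Between the pull-downs 2391 genes were higher with GFP-Mkrn3, 18.9% of those tested, and 1870 were lower, 14.8%, which makes 33.7% in either direction, in edgeR's quasi-likelihood test at a Benjamini-Hochberg adjusted p under 0.05. The rises were the larger changes: 811 genes (6.41%) rose by at least 2-fold and 61 (0.482%) fell by as much. The 3 libraries of each group did not overlap for 3130 genes on the higher side (24.8%) and 2801 on the lower side (22.2%). The split depended on scaling, since 56.1% of the calls were higher on the TMM scale and 80.3% when only the library total was used, where the median over all genes moved from 0.03 to 0.20. With the first GFP-Mkrn3 pull-down left out the counts were 1548 higher and 1000 lower, and with the second GFP pull-down left out 1224 were lower.

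**Figure D1:**
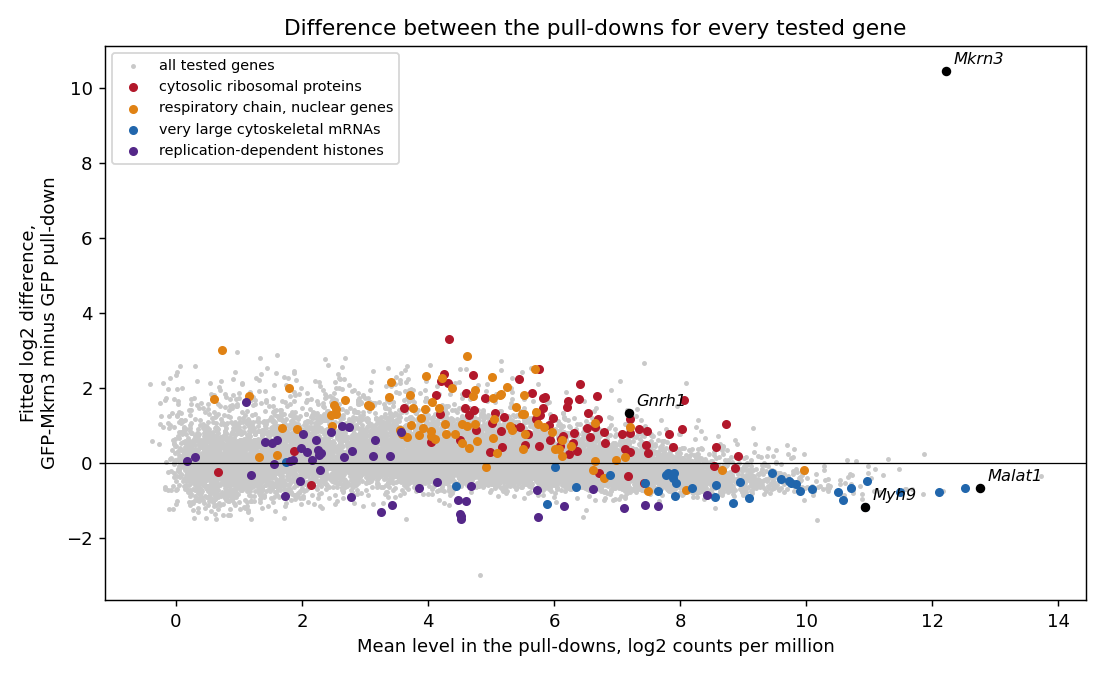
Mean level in the 6 pull-down libraries (x axis, log2 CPM) against the fitted log2 difference, GFP-Mkrn3 minus GFP (y axis), for the 12644 tested genes, each a point, with 4 gene groups in colour and 4 genes named. Ribosomal protein and respiratory chain genes lie mostly above 0, the very large cytoskeletal mRNAs lie mostly below it, and Mkrn3 stands alone at 10.45.

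The lysates that entered the pull-downs were nearly alike. Among 12084 genes tested in the inputs 4 were higher with GFP-Mkrn3 (0.0331%), namely Mkrn3, Pbdc1, Hnrnpa2b1 and Flrt3, and 0 were lower, while 986 had an unadjusted p under 0.05; DESeq2 called 25 higher and 9 lower. For the genes higher between the pull-downs, the median log2 difference was 0.81 in the pull-downs and -0.02 in the inputs. The corresponding medians for the genes lower between the pull-downs were -0.48 and 0.01. Set against their own inputs, the higher genes had a median IP-to-input log2 ratio of -0.85 in the GFP pull-down and -0.01 in the GFP-Mkrn3 pull-down. The lower genes had medians of 0.50 in the GFP pull-down and -0.01 in the GFP-Mkrn3 pull-down. For both sets, therefore, the median of the GFP-Mkrn3 pull-down lay close to its input and that of the GFP pull-down lay away from it; these ratios reuse the pull-down libraries that chose the sets and are given as a description.

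Gnrh1 (chr14:67745181-67749440) encodes the precursor of GnRH, the peptide by which these neurons drive the reproductive axis, and is the transcript named in the study's title. It stood at 91.6, 82.8 and 75.3 CPM in the GFP pull-downs and at 212, 198 and 215 CPM in the GFP-Mkrn3 pull-downs. The groups were far apart and each was tight. The log2 difference was 1.32 ± 0.10 (SE, n = 3 and 3, adjusted p = 2.81e-05), and the call held in all 13 alternatives. In the inputs the difference was 0.03 (adjusted p = 0.949), with all 6 input libraries between 285 and 342 CPM. The IP-to-input log2 ratio was -1.90 with GFP and -0.61 with GFP-Mkrn3, so Gnrh1 mRNA was a smaller share of either pull-down than of its lysate, less so with GFP-Mkrn3.

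Other genes of the makorin family and of prohormone handling moved less. Mkrn1, a related ubiquitin ligase that binds poly(A)-binding protein, fell from 72.9, 64.9 and 63.1 CPM to 43.8, 38.0 and 52.7 CPM (log2 difference -0.58 ± 0.14, adjusted p = 0.00677). Mkrn2 rose from 42.9, 39.0 and 39.9 CPM to 47.7, 52.5 and 53.05 CPM (0.33 ± 0.12, adjusted p = 0.0437), a call lost without any 1 of the 6 libraries, with DESeq2, with no filter on low counts and with the replicate number as a term. Of 13 tested genes of prohormone processing and secretory granules, 3 were higher (23.1%) and 3 lower (23.1%), beside 18.9% and 14.8% over all genes. Beside Gnrh1 the higher ones were Pcsk1n, the inhibitor of prohormone convertase 1, at 1.16 (adjusted p = 0.00679), and Rab3a, a GTPase of vesicle exocytosis, at 0.91 (adjusted p = 0.0133, lost without the first GFP pull-down). The lower ones were the amidating enzyme Pam (-0.39, adjusted p = 0.0102, lost with library totals as scale), the carboxypeptidase Cpd (-0.54) and the prolyl endopeptidase Prep (-0.41, lost with library totals as scale and without the second GFP or first GFP-Mkrn3 pull-down). Carboxypeptidase E, which trims prohormone intermediates, stood at 318, 310 and 302 CPM with GFP and at 269, 281 and 275 CPM with GFP-Mkrn3 (-0.17, adjusted p = 0.134). Pcsk2 did not pass either (-0.28, adjusted p = 0.101), no counts of Pcsk1 were found in the 12 input and pull-down libraries, and Nptx1 had too few counts to be tested.

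Of 27 transcripts of the poly(A)-binding and deadenylation machinery 9 were higher (33.3%) and 4 lower (14.8%, the share over all genes), with a median of 0.08. Pabpc1, the main cytoplasmic poly(A)-binding protein, rose from 474, 487 and 481 CPM to 683, 706 and 652 CPM (0.50 ± 0.09, adjusted p = 0.00143). No GFP library reached the lowest GFP-Mkrn3 library. The antiproliferative deadenylation cofactors Tob1 (0.89) and Btg1 (0.85) and the PABP-interacting repressor Paip2 (0.65) also rose. Paip2b (-0.51), the deadenylase scaffold Cnot1 (-0.39) and the La-related proteins Larp1 (-0.30) and Larp4 (-0.31) fell. With library totals as scale Cnot1, Larp1 and Larp4 were no longer called, and the last 2 were also lost without several single libraries. Pabpc4 stood at -0.23 (adjusted p = 0.106). A list of reported Mkrn3 substrates and partners, in which Gnrh1 was placed as well, had 11 tested genes. Of these 6 were higher (54.5%) and 1 was lower (9.09%), beside 18.9% and 14.8% over all genes. Reported substrates are proteins, whereas these values are shares of mRNAs and do not bear on protein binding or ubiquitination. The list was chosen with earlier results of these data known. Gnrh1 and Pabpc1, already given above, are among the 6, as are Igf2bp2 (0.81), which encodes a reader of mRNA, and Ybx1 (0.40), which encodes an abundant mRNP protein.

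**Figure D2:**
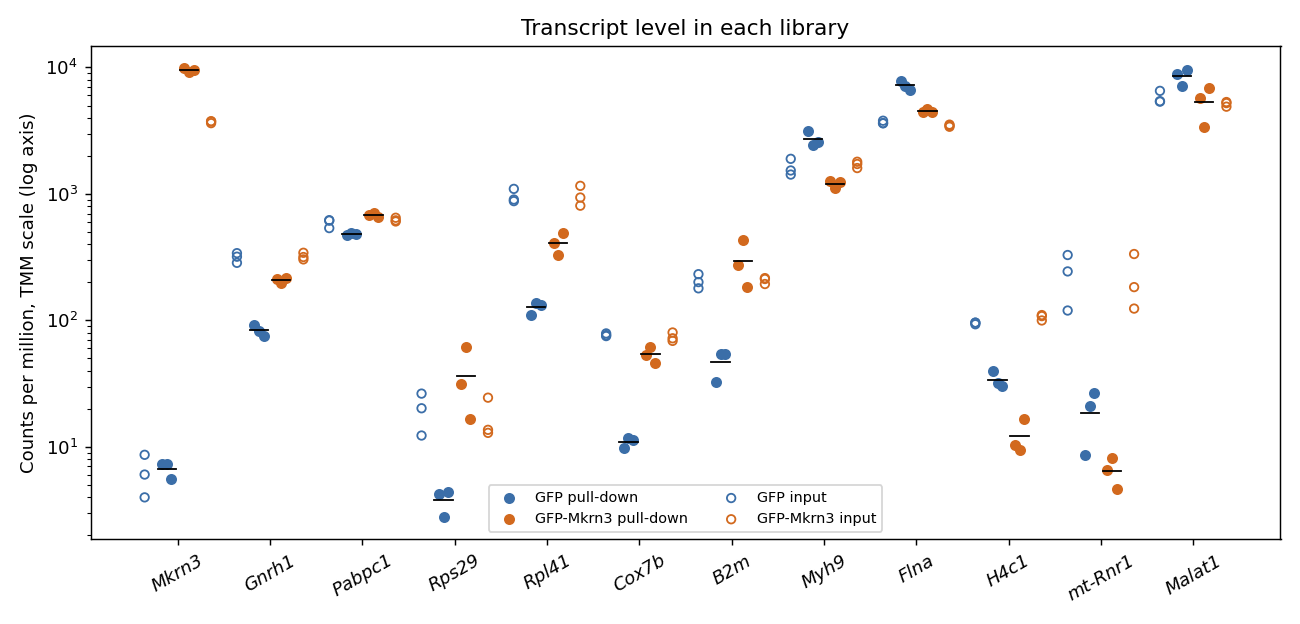
CPM on the TMM scale (log axis) of 12 transcripts in each library, with filled points for the 3 GFP (blue) and 3 GFP-Mkrn3 (orange) pull-downs, black bars for their means, and open points for the inputs of the same plasmid. The 3 Gnrh1 points of the GFP-Mkrn3 pull-downs (198 to 215) sit above the GFP pull-downs (75.3 to 91.6) and below all inputs.

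Most genes for cytosolic ribosomal proteins were higher. Of 33 small-subunit genes 29 were higher (87.9%) and 0 lower (median 0.97). Of 48 large-subunit genes 39 were higher (81.2%) and 2 lower (4.17%, median 0.80). Over all genes 18.9% were higher and 14.8% lower, with a median of 0.03. Rps29 (chr12:69157722-69159186), a small zinc-binding protein of the small subunit, went from 4.22, 2.81 and 4.36 CPM to 31.4, 61.7 and 16.6 CPM, the largest rise after Mkrn3 among the named genes (3.30 ± 0.43, adjusted p = 0.000389). Its GFP-Mkrn3 libraries all lay above the GFP libraries but differed among themselves. The more abundant Rpl41, the smallest ribosomal protein, moved from 110, 138 and 132 CPM to 407, 328 and 493 CPM (1.69 ± 0.15, adjusted p = 6.51e-05). Rps28 followed the same course, from 23.9, 32.0 and 22.3 CPM to 86.3, 93.8 and 81.9 CPM (1.74 ± 0.14, adjusted p = 4.46e-05). Other members that rose were Rplp1 (2.12), Rps26 (1.87), Rpl38 (1.86), Rps12 (1.78) and Rps2 (1.03), and over all tested members the difference ran from -0.59 to 3.30 in the small subunit and from -0.52 to 2.49 in the large one. The exceptions were Rpl3 (-0.35, adjusted p = 0.0219) and Rpl5 (-0.52, adjusted p = 0.0228), which were lower. Ribosomal protein genes have many processed pseudogenes, so reads may have been divided between near-identical copies.

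Ribosomal protein mRNAs are known for a run of pyrimidines at their start, the 5′ terminal oligopyrimidine motif, through which their translation is controlled. The start sites of the 5 named ribosomal protein genes with a single RefSeq start entry are shown with those of 2 abundant genes that fell, Flna and Hspa5, because this motif is the feature these mRNAs are best known to share. Each line gives 15 bases before and 15 after the annotated start on the gene's strand, and capitals mark a run of at least 8 consecutive C or T that reaches the start or the bases after it.
Rps28 (chr17:33824548-33824577, minus strand): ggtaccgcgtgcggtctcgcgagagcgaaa
Rpl41 (chr10:128549154-128549183, minus strand): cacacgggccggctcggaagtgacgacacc
Rps12 (chr10:23787195-23787224, minus strand): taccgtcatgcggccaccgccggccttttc
Rps26 (chr10:128626492-128626521, minus strand): gtcgggcaagccgccggaTCCTCTTTCgag
Rpl38 (chr11:114668565-114668594, plus strand): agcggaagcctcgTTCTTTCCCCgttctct
Flna (chrX:74246520-74246549, minus strand): caacctctgttctgtgcctcgtcgttcatg
Hspa5 (chr2:34772075-34772104, plus strand): tcggcgacggcgcgctcgatactggccgag

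Of the 11140 protein-coding genes tested, 7061 had 1 RefSeq start entry, and 7.41% of these held such a run on the gene's strand. Among ribosomal protein genes it was found in 21 of 51, or 41.2%. Ribosomal protein genes with the run had a median log2 difference of 0.79, with 18 of 21 higher, and those without it had a median of 1.00, with 24 of 30 higher. Among other genes, 88 of 502 with the run were higher (17.5%, median 0.02), as were 1351 of 6508 without it (20.8%, median 0.04). An annotated start can lie inside the gene's span, as those of Rpl38, Rps12 and Flna do, and can miss the first base of the RNA, so a window without the run says only that these letters were not in it.

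Nuclear genes for the mitochondrion's energy and protein machinery were mostly higher. Respiratory complex I had 29 of 37 subunit and assembly genes higher (78.4%) and 2 lower (5.41%, median 0.97). Complexes II to V had 41 of 49 higher (83.7%) and 1 lower (2.04%, median 1.04). The shares over all genes were 18.9% higher and 14.8% lower. Cox7b, a small subunit of cytochrome c oxidase, moved from 9.84, 11.7 and 11.2 CPM to 53.7, 61.7 and 46.1 CPM (2.30 ± 0.16, adjusted p = 1.39e-05). Uqcc2, an assembly factor of complex III, moved from 13.5, 18.8 and 13.9 CPM to 86.7, 103 and 74.8 CPM (2.51 ± 0.17, adjusted p = 1.31e-05). Neither gene had overlapping groups. Atp5md, a small subunit of ATP synthase, reached 2.84, Uqcr10 2.26, Cox7a2 1.99, Ndufa7 1.94 and Ndufa4 1.82. The members that fell encode the catalytic subunits Ndufs1 (-0.74, adjusted p = 0.000863), Ndufv1 (-0.41, adjusted p = 0.018) and Sdha (-0.73, adjusted p = 0.000358). Mitochondrial ribosomal proteins, taken by symbol pattern, had 58 of 77 genes higher and 0 lower (median 0.86), among them Mrpl34 (2.45) and Mrps21 (2.12). Mrps36 (2.95) was counted with them by its symbol alone and had only 5, 4 and 1 counts in the GFP pull-downs. Of 7 mRNAs encoded in mitochondrial DNA 0 were higher, and mt-Nd6 was lower. Relative to the GFP pull-downs, their medians were -0.17, 0.46 and -0.16 in GFP-Mkrn3 libraries 1, 2 and 3. The fitted median of 0.02 changed sign in 4 of 13 alternatives. At this spread it cannot be told whether they followed the nuclear genes.

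**Figure D3:**
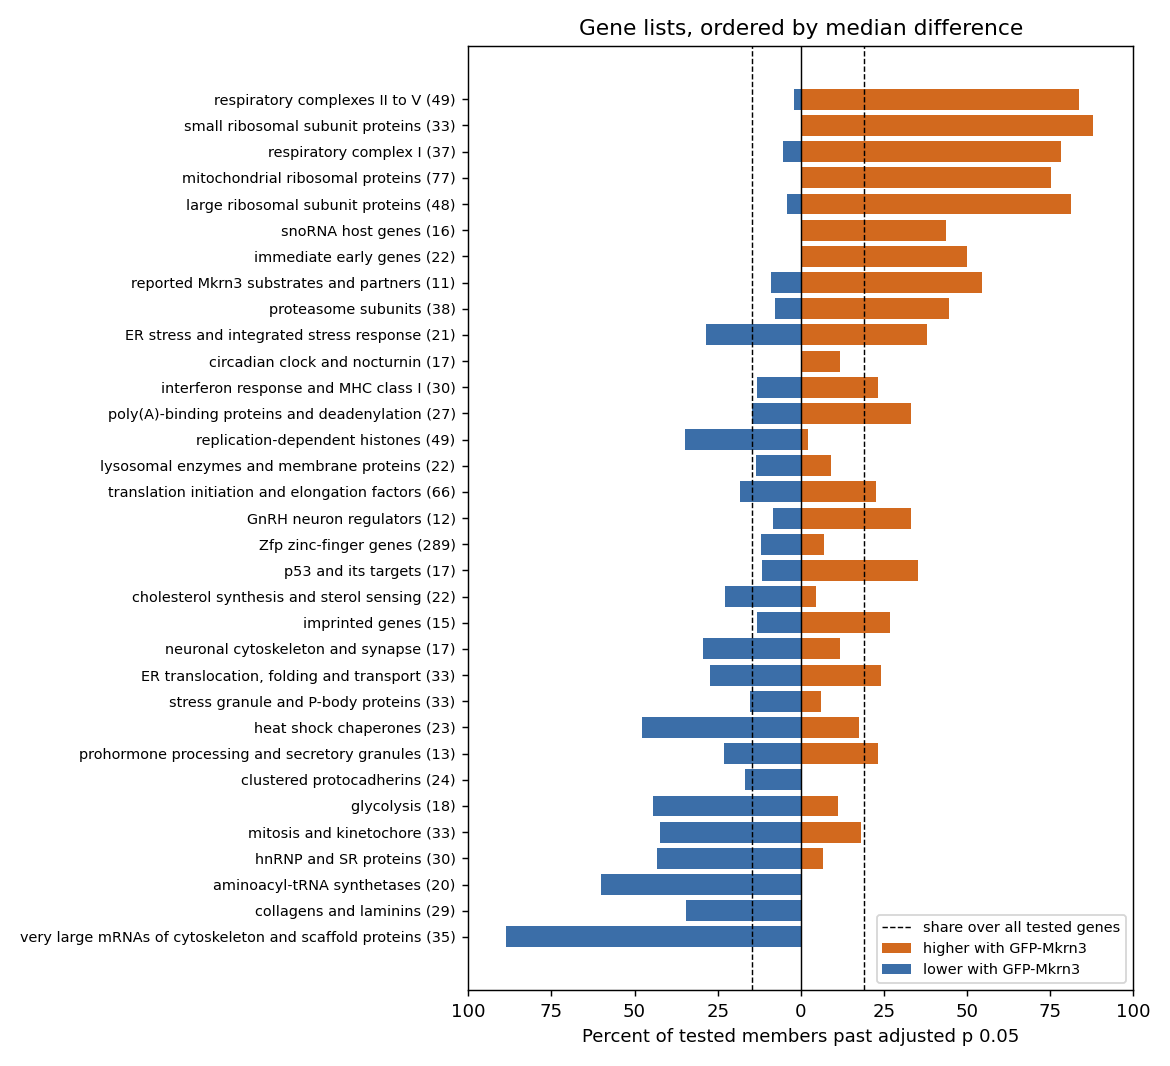
Percent of each list's tested members that were higher (orange, to the right) or lower (blue, to the left) with GFP-Mkrn3, for lists with at least 10 tested members (number in brackets), ordered by median log2 difference. Dashed lines mark the shares over all tested genes, 18.9% and 14.8%; the ribosomal and respiratory lists lie far beyond the first and the very large mRNAs far beyond the second.

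B2m, the light chain of MHC class I, went from 32.3, 54.1 and 53.8 CPM to 272, 430 and 185 CPM (2.67 ± 0.28, adjusted p = 0.000146). Of the 30 interferon and MHC class I genes tested, 7 were higher (23.3%) and 4 lower (13.3%), near the shares over all genes (median 0.11). Bst2 (1.63), Isg15 (1.51) and Isg20 (1.18), antiviral effectors, were among the higher ones, and the kinase Eif2ak2 (-0.36), the transcription factor Stat2 (-0.36) and the editing enzyme Adar (-0.32) among the lower ones. The calls of Eif2ak2, Stat2 and Adar were lost with library totals as scale and without any of several single libraries. Mt2, a metallothionein, reached 2.62, Bri3 2.72 and Smim29 2.59. Among proteasome subunits 17 of 38 were higher (44.7%) and 3 lower (7.89%, median 0.29), beside 18.9% and 14.8% over all genes. The regulatory-particle gene Psmd8 (1.22) and the core-particle genes Psma1 (0.80), Psmb6 (0.75) and Psmb1 (0.72) were up. The regulatory-particle genes Psmd2 (-0.64), Psmd1 (-0.52) and Psmd13 (-0.37) were down. The last call was lost with library totals as scale and without several single libraries, and 1 of the 17 higher genes, Psmc3ip, shares the symbol pattern but encodes no subunit. Immediate early genes, which respond to stimulation within minutes, had 11 of 22 higher (50%) and 0 lower (median 0.44). Egr1 stood at 1.01, Klf2 at 0.96, Junb at 0.89 and Klf4 at 0.83. The hosts of small nucleolar RNAs, whose spliced transcripts are short-lived, had 7 of 16 higher (43.8%) and 0 lower (median 0.63). Snhg1 (1.74), Snhg3 (1.52) and Epb41l4aos (2.13) were among the higher ones. Epb41l4aos had only 4, 7 and 1 counts in the GFP pull-downs, so a fall could hardly have been called. Snhg3 had 6, 13 and 12 counts there.

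Of 66 initiation and elongation factors 15 were higher (22.7%) and 12 lower (18.2%), shares near the 18.9% and 14.8% over all genes (median 0.04). Eif4ebp1, the repressor of the cap-binding protein, went from 26.8, 32.7 and 34.7 CPM to 113, 161 and 71.7 CPM (1.88 ± 0.24, adjusted p = 0.000339), and the small start-codon factor Eif1 rose by 1.43. Other initiation factors fell, with Eif3a at -0.79, Eif4b at -0.70, Eif5b at -0.68 and Eif3c at -0.62. None of 20 aminoacyl-tRNA synthetases was higher and 12 were lower (median -0.33), among them Lars (-0.90), Eprs (-0.73) and Nars (-0.67). Of 33 genes of ER translocation, folding and transport 8 were higher and 9 lower (median -0.11, and 0.06 with library totals as scale). The translocon and signal-recognition genes Sec61b (1.75), Ssr2 (1.25), Ssr4 (1.18) and Srp14 (0.99) rose. The lectin chaperones Canx (-0.83) and Calr (-0.70) and the coatomer genes Copa (-0.67) and Copb2 (-0.58) fell. In the ER stress list, 8 of 21 were higher and 6 lower (median 0.25): the transcription factors Atf4 (1.21), Nupr1 (1.31) and Ddit3 (0.51) rose, and the chaperones Hyou1 (-0.95), Hspa5 (-0.82) and Pdia4 (-0.54) fell.

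Genes listed for very large cytoskeletal and scaffold proteins were mostly lower. Of 35 tested genes of this list, 31 were lower and 0 higher (median -0.61), against 14.8% lower over all genes. Myh9, the heavy chain of non-muscle myosin, stood at 3152, 2435 and 2552 CPM with GFP and at 1264, 1110 and 1251 CPM with GFP-Mkrn3 (-1.17 ± 0.12, adjusted p = 0.000123). Every GFP-Mkrn3 library was below every GFP library. Flna, an actin cross-linker and one of the most abundant transcripts, fell from 7859, 7146 and 6688 CPM to 4427, 4719 and 4457 CPM (-0.67 ± 0.10, adjusted p = 0.000734). Myh10 (-1.06), the spectrin Sptan1 (-0.98) and the cytolinker Plec (-0.91) fell too. The 4 members that did not pass were Map1a (-0.26), Ubr4 (-0.26), Map2 (-0.10) and Flnc (0.02). Chaperones fell in 11 of 23 cases and rose in 4 (median -0.16, and 0.01 with library totals as scale). Hsph1 stood at -0.86, Hsp90ab1 at -0.73, Hsp90aa1 at -0.65 and Hspe1 at 1.78.

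Several other abundant groups were lower as well. Collagens and laminins had 10 of 29 lower and 0 higher (median -0.51), with Col4a1 (-0.73), Col6a1 (-0.71) and Col4a5 (-0.68). In the hnRNP and SR protein list, whose members package and splice nuclear RNA, 13 of 30 were lower (43.3%) and 2 higher (median -0.28). The lower ones included Hnrnpul2 (-0.79), Hnrnpu (-0.69) and Hnrnpm (-0.66). Mitosis genes had 14 of 33 lower (42.4%) and 6 higher (18.2%, median -0.27). Cenpf (-0.88), Top2a (-0.76) and Cenpe (-0.69) were among those that fell, and Ube2c (1.49), Birc5 (0.87) and Cenpa (0.84) among those that rose. Glycolytic genes had 8 of 18 lower (44.4%) and 2 higher (median -0.26). Hk2 stood at -0.99, Pkm at -0.77, and Gapdh at 0.63 (adjusted p = 0.0171, lost without any 1 of the 3 GFP pull-downs). Zinc-finger genes of the Zfp series, 289 of them, showed 20 higher and 35 lower (median -0.01, and 0.16 with library totals as scale), below the share over all genes in both directions. Of 5 tested markers of fibroblasts, endothelium and immune cells 3 fell, Kdr (-0.75), Pdgfra (-0.71) and Col1a1 (-0.51), and their inputs differed by -0.11, 0.06 and 0.02. The endothelial and immune genes Pecam1, Cdh5, Ptprc and Aif1 had at most 5 counts in a group of 3 libraries, while the macrophage gene Cd68 had 59 and 102. The call of Col1a1 was lost with library totals as scale and without the first GFP pull-down. The summed level of the list was 873.7 to 997.9 CPM in the GFP pull-downs and 624.2 to 633 CPM in the GFP-Mkrn3 pull-downs, and its part in the other results was not tested.

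Gene size ordered the differences across the whole table. The span of each gene on the genome, introns included, was available for 11052 of the 11140 protein-coding genes tested. The length of the mature RNA and the size of the protein were not used here. Among the 2763 genes with the shortest span, 375 to 11150 bp, 42.9% were higher and 5.28% lower (median 0.41). The next sets of 2763 genes had medians of 0.12, -0.06 and -0.16, and in the longest 6.73% were higher and 27.8% lower. Among genes under 2000 bp 58.8% were higher, with a median of 0.89, and among those of 2000 to 5000 bp 50.7%, with a median of 0.53. The ribosomal and mitochondrial lists above were set against all genes only, and a comparison with other genes of like span was not made. The order was present on either side of the median abundance: among less abundant genes the medians of the 4 sets were 0.52, 0.24, 0.10 and 0.02, and among more abundant genes 0.24, -0.03, -0.18 and -0.24. Abundance had an order of its own, since 42.7% of the 2785 most abundant genes were lower against 1.80% of the 2785 least abundant, where counting error is larger. On the higher side the shares were 8.65% of the most abundant and 22% of the least abundant, with medians of -0.24 and 0.27. In the inputs the medians by size class lay between -0.05 and 0.02.

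**Figure D4:**
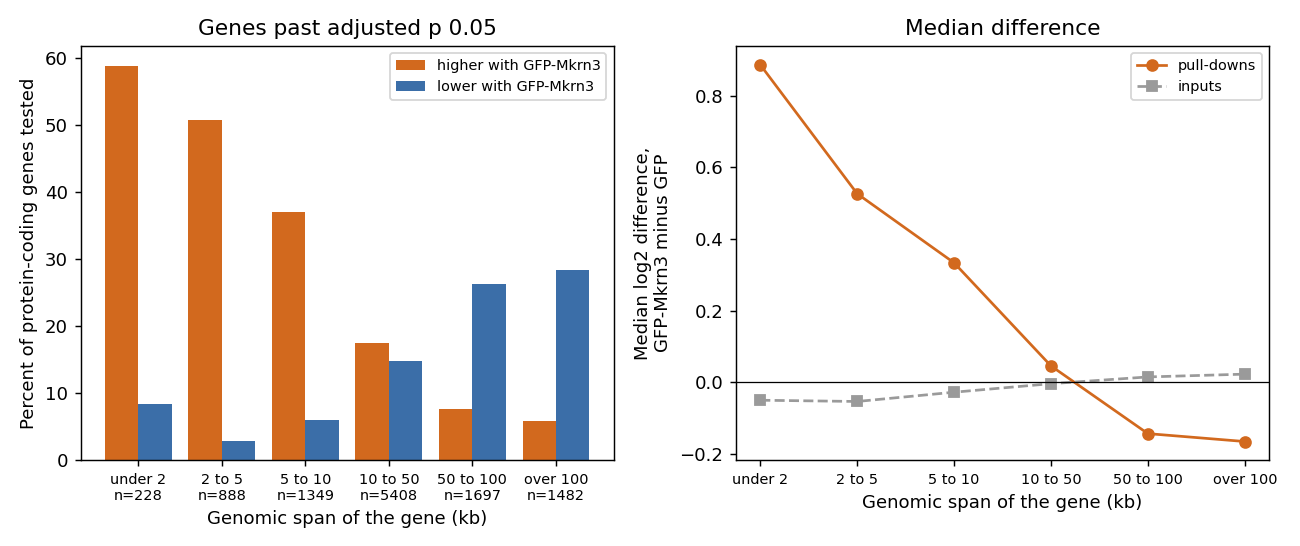
Left, percent of tested protein-coding genes higher (orange) or lower (blue) with GFP-Mkrn3 in 6 classes of genomic span in kb, with the number of genes under each class. Right, median log2 difference of the same classes in the pull-downs (orange circles) and in the inputs (grey squares); the pull-down medians run from 0.89 to -0.17 and the inputs stay near 0.

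Histone genes, which are short, were an exception among short genes. Of 49 tested replication-dependent histone genes, whose mRNAs usually end in a stem-loop and not a poly(A) tail, 17 were lower (34.7%) and 1 higher (2.04%). Over all genes 14.8% were lower and 18.9% higher. The linker histone H1f3 stood at 193, 185 and 196 CPM with GFP and at 84.1, 79.2 and 87.0 CPM with GFP-Mkrn3 (-1.20 ± 0.09, adjusted p = 2.81e-05). H4c1, one of many genes for histone H4, stood at 39.7, 31.8 and 30.02 CPM and at 10.4, 9.46 and 16.5 CPM (-1.50 ± 0.21, adjusted p = 0.000548). Both had groups well apart. All but 2 of the 17 encode H1 or H4; H2bc18 (-0.92) and H3c7 (-0.68) were the others, and H2bc7 rose (1.64). The list as a whole had no steady level, because its median relative to the GFP pull-downs was -0.25, 0.37 and -0.97 in GFP-Mkrn3 libraries 1, 2 and 3, and the fitted median of 0.06 changed sign in 9 of 13 alternatives. Histone H4 genes encode the same protein with closely related coding sequences, so counts may be shared among them.

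Among non-coding RNAs of the nucleus, 5 of 7 genes annotated as Cajal body RNAs were lower (71.4%) and 0 higher. Of 15 annotated as small nucleolar RNAs 3 were lower (20%) and 1 higher, and of 8 listed nuclear long RNAs 2 were lower (25%) and 0 higher. These last shares lie near the 14.8% lower over all genes and rest on few genes. The libraries read polyadenylated RNA, so counts at the Cajal body and small nucleolar genes need not measure their mature RNAs. Scarna2, which guides modification of spliceosomal RNA, went from 123, 115 and 146 CPM to 62.1, 47.6 and 52.6 CPM (-1.24 ± 0.13, adjusted p = 0.000146), and Scarna9 and Scarna17 fell by 1.13 and 1.06 on the log2 scale, calls that were lost without the first or the third GFP pull-down. Malat1, a long RNA of nuclear speckles, stood at 8849, 7107 and 9549 CPM and at 5718, 3380 and 6867 CPM (-0.68 ± 0.21, adjusted p = 0.0265), a call lost with library totals as scale, without the first or the third GFP pull-down and without the first GFP-Mkrn3 pull-down. The mitochondrial rRNAs mt-Rnr1 (-1.50, adjusted p = 0.00655) and mt-Rnr2 (-1.43, adjusted p = 0.00335) were lower, with wide spread in the GFP group: mt-Rnr2 ran from 66.8 to 199 CPM there and from 43.3 to 55.2 CPM with GFP-Mkrn3. The lone light-strand mRNA mt-Nd6 fell from 418, 547 and 608 CPM to 244, 118 and 318 CPM (-1.21, adjusted p = 0.00552). The strand setting of the counting is not stated in the labels, so mt-Nd6 cannot be told apart from transcripts of the other strand.

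The largest fall belonged to the miRNA gene Mir6236 (chr9:110281287-110281409), whose mature RNA from RefSeq (GRCm38.p6, chr9:110281353-110281371, plus strand) is shown with its seed, bases 2 to 8, in capitals because it identifies what this gene encodes.
miR-6236: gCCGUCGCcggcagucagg

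The libraries read polyadenylated RNA, so counts at Mir6236 need not measure the 19-base mature form. They stood at 23.9, 50.3 and 77.8 CPM with GFP and at 4.55, 8.03 and 6.19 CPM with GFP-Mkrn3 (-2.99 ± 0.36, adjusted p = 0.000296). The inputs already spread widely, with 108, 46.1 and 14.0 CPM for GFP and 13.0, 13.9 and 16.8 CPM for GFP-Mkrn3 (-1.92, adjusted p = 0.204), and the IP-to-input ratios did not pass the test of their difference (-1.07, adjusted p = 0.3). The share of counts on rRNA genes had the same order in the GFP pull-downs, at 0.0737%, 0.152% and 0.259%, and stood at 0.0532%, 0.0996% and 0.0379% in the GFP-Mkrn3 pull-downs, and the 1 rRNA gene tested was lower by a log2 difference of -1.51; the part of rRNA in the Mir6236 counts was not tested. Of the 4 miRNA genes tested, Mir8091 was also lower.

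**Figure D5:**
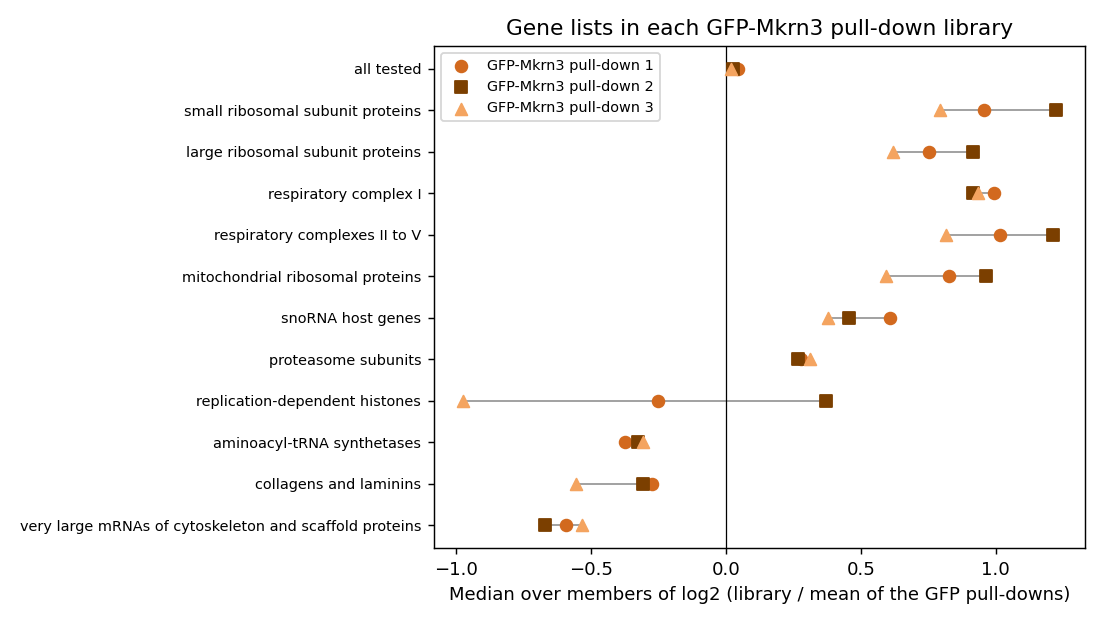
Median over a list's members of the log2 ratio of 1 GFP-Mkrn3 pull-down library to the mean of the GFP pull-downs, for 12 sets of genes, with circles, squares and triangles for libraries 1, 2 and 3. Ribosomal and respiratory lists lie above 0 and the very large mRNAs below it in every library, while the histones run from -0.97 to 0.37.

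The 3 GFP-Mkrn3 libraries differed in the size of the rises. Small-subunit ribosomal proteins had medians of 0.96, 1.22 and 0.80 in libraries 1, 2 and 3, and complexes II to V had 1.02, 1.21 and 0.82. The second library, the deepest, was the highest and the third, the shallowest of this group, the lowest in both lists, as for Rps29 and B2m above; the part of depth in this was not tested. Complex I was even across libraries at 0.99, 0.91 and 0.93, as were the very large mRNAs at -0.59, -0.67 and -0.53. The contrast with the lysates was as large within lists: small-subunit ribosomal proteins had a median IP-to-input log2 ratio of -1.60 with GFP and -0.43 with GFP-Mkrn3, and very large mRNAs 0.78 and 0.14.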

How the data were processed

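RNA immunoprecipitates and inputs of GT1-7 cells were read as CEL-seq2 libraries. The deposited values are whole-number counts per gene, made by the authors with cutadapt, STAR and HTSeq on mm10, per the submitters' processing notes; their versions, the strand setting and whether molecular identifiers were used are not stated there. Gene names and types came from the second deposited table; 1606 of 57010 genes had no name. Library depths stand in the report.

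The 6 pull-down libraries were fitted alone with edgeR 4.0.16 (R 4.3.3): TMM scaling, filterByExpr by group, quasi-likelihood F test, two-sided, Benjamini-Hochberg adjustment, called under 0.05. The 6 inputs were fitted alone likewise, and the difference of IP-to-input ratios over all 12 libraries. SE was the absolute log2 difference divided by the root of F. The code was tested on simulated counts. Named genes were preset ones, the 12 largest calls and the 6 most abundant of at least 0.585 (log2) per direction, and up to 4 smallest p per list and direction; genes named as exceptions (such as Rpl3, Rpl5, Ndufs1, Ndufv1, Sdha, H2bc7, H2bc18, H3c7, Mir8091, Psmc3ip) were chosen after their values were seen. Members and lists were chosen with earlier results of these data known. Genes with several RefSeq starts were left out of the start sequences. Lists are described by counts and medians, with no set test. Alternatives covered scaling, low-count filter, tool (DESeq2 1.42.0), replicate block, joint fit and leaving out each library. A few named genes are not reported here.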

Additional observations from a re-analysis of the deposited data

Results flagged for a closer look

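The difference between GFP-Mkrn3 and GFP was not the same in the pull-downs as in the inputs. In a test of the difference itself over all 12 libraries, 1724 genes (13.2% of 13052) had a larger difference in the pull-downs than in the inputs and 1454 (11.1%) a smaller one. Gnrh1 was among the former (1.29, adjusted p = 5.14e-06) and Myh9 among the latter (-1.25, adjusted p = 3.67e-05). Mrps36 and Mir6236, both called between the pull-downs, did not pass it.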

How the results depend on the processing

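Of 197 named genes with a call, 159 kept it in all 13 alternatives, and 0 of 200 changed sign. Scaling by library totals gave 3637 genes higher and 891 lower between the pull-downs, and 2845 larger and 603 smaller IP-to-input ratios. Leaving out 1 library gave 1548 to 3110 higher and 1000 to 2604 lower. In the inputs, calls were 66 higher and 30 lower with no filter, 25 and 9 with DESeq2, 1 higher with the replicate block, 1 and 1 with all 12 libraries in 1 fit, and 1 to 68 higher and 0 to 10 lower with 1 library left out; the largest of these came without the first GFP input. The cause was not tested. With the replicate block 2674 genes were higher and 2058 lower between the pull-downs. Deviations from the group mean correlated at 0.000583, 0.1 and 0.101 between same-numbered libraries, and at -0.128 to 0.0441 between differently numbered ones. Whether the numbers pair the libraries cannot be told from these few values. Medians changed sign somewhere for 12 of 42 lists; the histone median ran from -0.52, without the second GFP-Mkrn3 pull-down, to 0.23. Depth limits low genes such as Mrps36, Cox6a2 and Epb41l4aos.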
